A study of Mus musculus with 8 samples.

Results

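The proteasome is the ATP-dependent protease that degrades ubiquitin-tagged proteins in the cytosol and nucleus. Its 20S core is a barrel of alpha rings, which gate the entry, and beta rings, which hold the catalytic sites, and the 19S regulator on its end recognises, unfolds and feeds in the substrate. In Mϕ exposed to interferon the core is known to exchange its catalytic subunits for those of the immunoproteasome (Psmb8, Psmb9 and Psmb10) and to pair with the PA28 activator (Psme1 and Psme2), which favours the release of peptides for antigen presentation.

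The genes described here are the constitutive proteasome subunits, their activators, assembly chaperones and inhibitor, chosen by symbol (Psma, Psmb, Psmc, Psmd, Psme, Psmf or Psmg followed by a number) among protein-coding genes, with the 3 immunoproteasome subunits left out. The symbols matched 48 genes, of which 46 had a mean normalized count of at least 10 over the 8 samples, out of 16309 genes with such a mean and 55359 genes listed. These 46 comprised 7 alpha ring and 7 beta ring subunits, 6 ATPases and 11 other subunits of the 19S regulator, 3 chaperones of 19S assembly, 5 activator genes, the inhibitor PI31 (Psmf1), 4 chaperones of 20S assembly, and 2 genes that match by name only, namely Psmc3ip (a meiotic recombination cofactor) and Psme3ip1 (a partner of the activator PA28 gamma).

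RNA came from primary bone-marrow-derived Mϕ (BMDMs) of adult male and female wild-type C57BL/6 mice, grown in 20 ng/mL M-CSF and 20 ng/mL GM-CSF for 6 or 7 days, depending on the label, and enriched for CD45+ cells in all groups. Ctrl samples were naïve and unstimulated, and LPS samples were naïve and received LPS (100 ng/mL) with IFNγ (100 U/mL) for 6 h. Eff samples were efferocytic, that is, co-cultured for 16 h with 5 apoptotic cells per Mϕ and then washed, and LPSEff samples were efferocytic and afterwards received the same LPS/IFNγ stimulus. The apoptotic cells were murine NIH-3T3 fibroblasts of a single clone (D10) that carries a dimerizable human caspase-8 domain, killed with 10 nM of a dimerizer. The dimerizer stayed in the medium during the co-culture, and none is given for Ctrl and LPS. Effects of efferocytosis and of the dimerizer on the Mϕ therefore cannot be told apart here. Each group held 2 samples, and since the labels do not say whether they came from separate cultures or animals, p-values measure the spread between these samples, which may be technical.

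Between 3481288 reads (Ctrl sample 1) and 12020918 reads (Ctrl sample 2) were recovered per sample. All 12 Mϕ marker genes had a mean of at least 10, as did 3 of 12 markers of T cells, B cells and neutrophils, namely S100a8, S100a9 and Mpo. S100a8 had 308 and 269 normalized counts in Ctrl against 570 and 573 in LPS, and 665 and 699 in Eff against 995 and 961 in LPSEff. Of these 3 markers, limma called 1 higher in Eff against Ctrl, and 2 had values below 0 there. Markers of fibroblasts, 18 of 20 of which reached that mean, moved with the groups: their summed normalized count was 1790 and 1695 in Ctrl against 3748 and 4249 in LPS, and 3228 and 6786 in Eff against 11455 and 12489 in LPSEff. Ctrl and LPS cultures received no fibroblasts. Most of their sum was 1 gene, Fstl1, at 1580 and 1232 in Ctrl against 2869 and 3259 in LPS. Of the 18 markers, 16 had a value above 0 in LPS against Ctrl and 3 were called higher. Collagen Col1a1, a defining fibroblast marker, was at 7.62 and 12.1 in Ctrl against 16.8 and 38.6 in LPS, and 193 and 284 in Eff against 606 and 537 in LPSEff. Fibroblast RNA would carry proteasome transcripts too, and its part in the results on Eff and LPSEff below was not tested. In these bulk samples, fewer cells of a type and less RNA per cell cannot be told apart.

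Promoter sequences are shown for 4 genes whose response to LPS/IFNγ was large: the PA28 pair Psme1 and Psme2, the catalytic subunit Psmb6, and Psmg1, a chaperone that fell. Each runs from 250 bases before to 30 bases after the transcription start in RefSeq (table build GRCm38.p6), and was placed in GRCm39 by an exact match of the sequence. They lie at chr14:55815701-55815980 (plus strand), chr14:55828449-55828728 (minus strand), chr11:70415933-70416212 (plus strand) and chr16:95792131-95792410 (minus strand). The windows of Psme1 and Psme2 lie inside the bounds that GENCODE gives these neighbouring genes, whose longest models start further upstream. Capitals mark matches on either strand to GAAANNGAA (the core of the interferon-stimulated response element, ISRE), TTCNNNGAA (a GAS element) or TGACNNNGC (the antioxidant response element, ARE).
Psme1: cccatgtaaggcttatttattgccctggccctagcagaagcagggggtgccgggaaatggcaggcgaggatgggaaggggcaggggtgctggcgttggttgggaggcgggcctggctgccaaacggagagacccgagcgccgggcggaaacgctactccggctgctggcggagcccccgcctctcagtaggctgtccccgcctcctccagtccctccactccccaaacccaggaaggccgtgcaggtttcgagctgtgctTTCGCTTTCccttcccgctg
Psme2: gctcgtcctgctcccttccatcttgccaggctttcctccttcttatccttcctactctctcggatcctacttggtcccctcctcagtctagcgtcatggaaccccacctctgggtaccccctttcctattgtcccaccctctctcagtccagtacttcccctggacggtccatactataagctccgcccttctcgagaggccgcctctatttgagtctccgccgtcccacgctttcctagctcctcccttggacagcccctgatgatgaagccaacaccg
Psmb6: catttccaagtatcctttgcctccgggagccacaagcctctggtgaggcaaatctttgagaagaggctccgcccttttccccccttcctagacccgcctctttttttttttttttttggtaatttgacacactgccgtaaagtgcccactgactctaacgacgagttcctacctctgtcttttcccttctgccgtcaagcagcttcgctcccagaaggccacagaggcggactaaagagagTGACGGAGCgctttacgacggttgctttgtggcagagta
Psmg1: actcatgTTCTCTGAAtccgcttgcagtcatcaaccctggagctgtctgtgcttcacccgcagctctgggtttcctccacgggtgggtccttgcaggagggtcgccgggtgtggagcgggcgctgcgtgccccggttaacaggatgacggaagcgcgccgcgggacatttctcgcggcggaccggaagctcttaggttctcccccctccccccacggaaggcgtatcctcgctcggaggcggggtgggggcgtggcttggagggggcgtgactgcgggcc

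The Psme1 window holds 1 ISRE match, the Psmb6 window 1 ARE match and the Psmg1 window 1 GAS match, and the Psme2 window holds none of these. Over windows of 300 bases (to 50 bases after the start), 39 of the 46 genes were in the table of 32851 promoters. An ISRE match stood in 15.4% of these 39 and in 8.56% of all promoters, an ARE match in 15.4% and 12.4%, and a GAS match in 5.13% and 8.30%. A TATA box (TATAAA) stood in 7.69% against 13.6%, and an NF-Y box (CCAAT) in 33.3% against 37.4%. These matches describe letters in the window and no binding.

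The first question was how LPS/IFNγ alters proteasome mRNAs in naïve Mϕ. Of the 46 genes, 7 were higher and 2 were lower in LPS than in Ctrl (limma on log2(normalized count + 1), adjusted p under 0.05), that is 15.2% and 4.35% of them, where 12.4% of all genes tested were called higher and 11.6% lower. The median log2 fold change was 0.33 over the 46 genes and -0.01 over all genes, and 37 of the 46 values lay above 0. When every library was instead scaled to the same total, the median of all genes moved by -0.39, the median of the proteasome genes became -0.07, and 4 were called higher and 7 lower, so that the sign of the family's median holds only relative to the other genes (a difference of 0.34 in the main scaling and 0.33 with equal totals). As a share of all normalized counts, the 46 genes took 0.339% and 0.379% in Ctrl against 0.359% and 0.363% in LPS. They took 0.369% and 0.398% in Eff against 0.404% and 0.391% in LPSEff. Ctrl and LPS thus overlapped, and so did Eff and LPSEff. The 7 higher genes became 3 without Ctrl sample 1 and 4 without LPS sample 2, and the 2 lower genes became 1 without Ctrl sample 1, Ctrl sample 2 or LPS sample 1. Without LPS sample 2 the median over the 46 genes was 0.20. With the sample number (1 or 2) as a further term in the fit (the replicate block), 16 genes were called higher and 4 lower. In LPSEff against Eff it gave 20 and 4. The labels do not say what the number marks, and samples sharing it deviated together (correlations between groups of 0.404 to 0.595).

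The same stimulus was then compared in efferocytic Mϕ. Here 9 of the 46 genes (19.6%) were higher and 1 (2.17%) was lower in LPSEff than in Eff, where 10.7% of all genes were called higher and 8.95% lower. The median log2 fold change was 0.37 over the 46 genes, with 39 values above 0, and 0.01 over all genes, while with equal totals the median of all genes moved by -0.44, that of the proteasome genes became -0.08, and 5 were called higher and 6 lower. The higher genes fell to 5 without Eff sample 1 or LPSEff sample 1, and the lower gene was lost without Eff sample 1, Eff sample 2 or LPSEff sample 1. Psme1, Psme2, Psme2b, Psmb6, Psma6 and Psmd10 were called higher in both comparisons and Psmg1 lower in both, out of 10 genes called higher and 2 called lower in either.

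**Figure D1:**
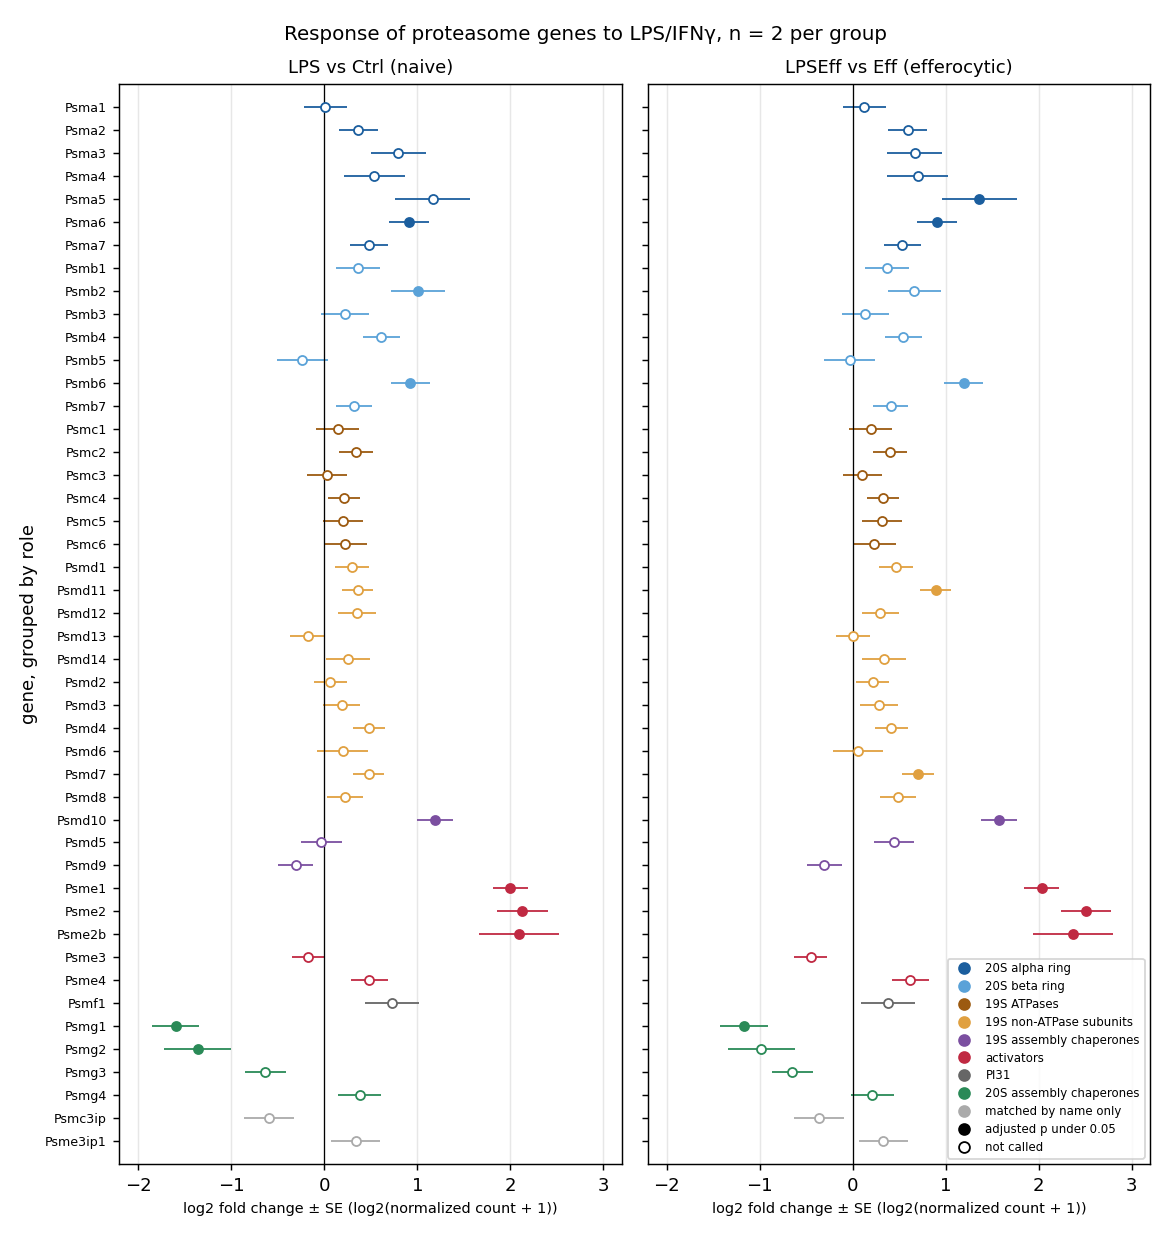
Log2 fold change ± SE of each of the 46 genes in LPS against Ctrl (left) and LPSEff against Eff (right), coloured by role, with filled points for limma adjusted p under 0.05. The PA28 genes Psme1, Psme2 and Psme2b lie at 2.00 or above in both panels, most 20S and 19S subunits between 0 and 1, and Psmg1 and Psmg2 lowest.

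Of the 5 activator genes, 3 rose in both comparisons. Psme1 (PA28 alpha; chr14:55815190-55822034, plus strand) had 303 and 348 normalized counts in Ctrl against 1161 and 1454 in LPS, and 246 and 264 in Eff against 996 and 1095 in LPSEff. Every stimulated sample lay above every unstimulated one. The log2 fold change was 2.00 ± 0.19 (SE; limma adjusted p = 0.000293) in naïve and 2.03 ± 0.19 (0.000258) in efferocytic Mϕ. Psme2 (PA28 beta; chr14:55824895-55829173, minus strand), which forms the heptameric ring with Psme1, had 162 and 256 in Ctrl against 804 and 994 in LPS, and 131 and 182 in Eff against 888 and 871 in LPSEff. Stimulated and unstimulated samples were separate here too, with log2 fold changes of 2.13 ± 0.27 (0.00114) and 2.50 ± 0.27 (0.000561). The Psme1 and Psme2 calls were kept in both comparisons whichever sample was left out.

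Psme2b (chr11:48836181-48837017, minus strand) is a copy of Psme2 and had 28.6 and 46.8 normalized counts in Ctrl against 137 and 185 in LPS, and 15.8 and 38.1 in Eff against 131 and 131 in LPSEff. Its log2 fold changes were 2.09 ± 0.43 (limma adjusted p = 0.0103) and 2.37 ± 0.43 (0.007). Of the stretches of 50 bases in the Psme2b transcript, 68.8% stand unchanged in the Psme2 transcript, and 59.2% of those of Psme2 stand in Psme2b. Reads of one can therefore have been dropped or counted for the other, and the values of both Psme2 and Psme2b are uncertain. Without Ctrl sample 1 or LPS sample 2 the Psme2b call in naïve Mϕ was lost (log2 fold changes of 1.74 to 2.44 over the samples left out).

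The other activators moved less. Psme3 (PA28 gamma), the nuclear member of the family, had 535 and 499 normalized counts in Ctrl against 462 and 455 in LPS, and 691 and 570.2 in Eff against 443 and 476 in LPSEff. The log2 fold changes were -0.17 ± 0.18 (limma adjusted p = 0.545) and -0.45 ± 0.18 (0.119), neither of which passed, although stimulated samples lay below unstimulated ones in both kinds of Mϕ. With equal totals both passed, at 0.0387 and 0.00697, and with the replicate block the latter did (0.0317). Psme4 (PA200), a large single-chain activator, had 839.7 and 861 in Ctrl against 1086 and 1307 in LPS, and 805 and 1036 in Eff against 1285 and 1532 in LPSEff. Its log2 fold changes of 0.49 ± 0.20 (0.121) and 0.62 ± 0.20 (0.0656) did not pass either. The latter passed with edgeR (0.0321) and DESeq2 (0.0271), within a range of 0.00439 to 0.476 over the alternatives that keep all samples. With the replicate block both passed (0.0144 and 0.00439). The ratio of Psme3 to Psme1, each per kb of transcript, was 1.71 and 1.39 in Ctrl against 0.384 and 0.302 in LPS, and 2.71 and 2.09 in Eff against 0.43 and 0.42 in LPSEff. These groups of 2 do not overlap between stimulated and unstimulated samples, and an exact two-sided permutation test of 2 against 2 samples cannot go below p = 0.333.

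**Figure D2:**
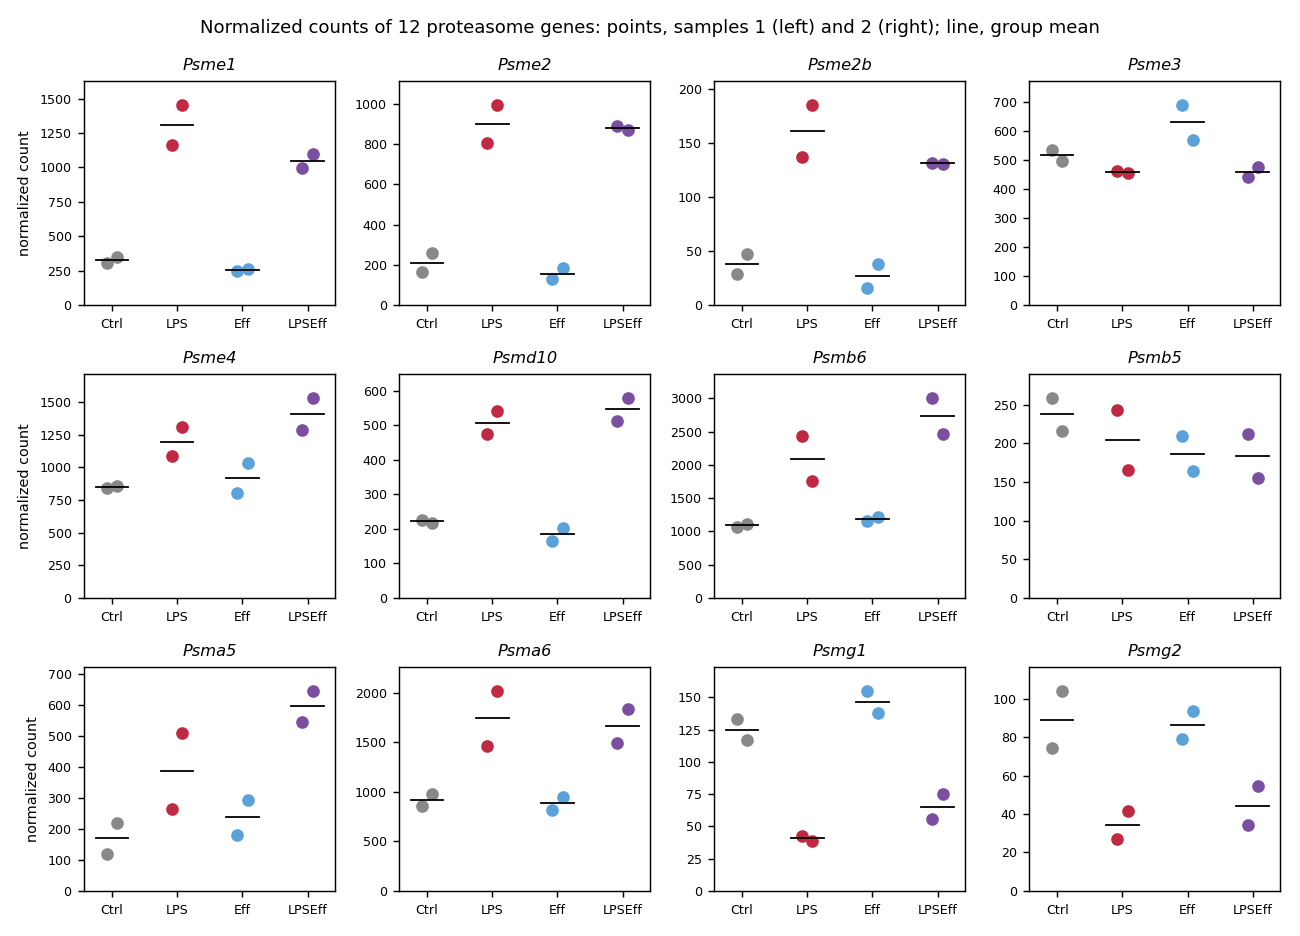
Normalized counts of 12 proteasome genes in each sample (points; sample 1 left, sample 2 right) with the group mean (line), every axis starting at 0. Psme1, Psme2, Psme2b and Psmd10 separate stimulated (LPS, LPSEff) from unstimulated samples upwards and Psmg1 and Psmg2 downwards, while Psmb5 overlaps between stimulated and unstimulated samples.

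Among the 7 alpha ring genes, all values lay above 0 in both comparisons (medians 0.54 and 0.66), but 1 gene was called in naïve and 2 in efferocytic Mϕ. With equal totals the median was 0.14 and 0.22, with 5 and 6 of the 7 values above 0 and none called. Psma6 was the alpha ring gene with the highest level per kb as the mean of all 8 samples. It had 857 and 973 normalized counts in Ctrl against 1464 and 2018 in LPS, and 819 and 947 in Eff against 1492 and 1831 in LPSEff. All stimulated samples lay above all unstimulated ones, with log2 fold changes of 0.91 ± 0.22 (limma adjusted p = 0.0184) and 0.91 ± 0.22 (0.0211). The first call was lost without Ctrl sample 1, Ctrl sample 2 or LPS sample 2 (up to 0.108), and the second without Eff sample 1, Eff sample 2, LPSEff sample 1 or LPSEff sample 2 (up to 0.131).

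Psma5 had the largest alpha ring fold changes, from 120.0 and 220.3 normalized counts in Ctrl to 264 and 509 in LPS, and from 181 and 294 in Eff to 545 and 646 in LPSEff. Samples of the same group were far apart. The log2 fold change of 1.17 ± 0.40 (limma adjusted p = 0.0714) in naïve Mϕ did not pass. It passed with DESeq2 (0.011), with quantile normalization (0.0311) and with the replicate block (0.000543). Over the samples left out this fold change ran from 0.69 to 1.64. The value of 1.36 ± 0.40 (limma adjusted p = 0.0481) in efferocytic Mϕ passed but was lost with equal totals (0.0856) and without Eff sample 1, Eff sample 2, LPSEff sample 1 or LPSEff sample 2 (up to 0.239). Of its transcript, 49.7% of the stretches of 50 bases have an exact copy elsewhere in the genome, most often in the pseudogene Psma5-ps, so its level is uncertain. Psma1 had the smallest alpha ring change, with log2 fold changes of 0.01 ± 0.23 and 0.13 ± 0.23. Psma3 had the lowest level per kb and log2 fold changes of 0.80 ± 0.30 (0.0905) and 0.66 ± 0.30 (0.163). The first passed with quantile normalization (0.0431) and with the replicate block (0.021).

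In the beta ring, 6 of 7 values lay above 0 in both comparisons (medians 0.36 and 0.41, which became -0.04 in both with equal totals), and 2 genes were called higher in naïve and 1 in efferocytic Mϕ. Psmb6, which carries the caspase-like site (chr11:70416183-70418684, plus strand), had 1063 and 1114 normalized counts in Ctrl against 2434 and 1754 in LPS, and 1158 and 1220.2 in Eff against 3005 and 2458 in LPSEff. Every stimulated sample was above every unstimulated one, and the log2 fold changes were 0.92 ± 0.21 (limma adjusted p = 0.0147) and 1.19 ± 0.21 (0.00581). The call in naïve Mϕ was lost without Ctrl sample 1, Ctrl sample 2 or LPS sample 1 (up to 0.0826), with equal totals and with quantile normalization, and the call in efferocytic Mϕ was kept under both scalings and whichever sample was left out. Psmb5, which carries the chymotrypsin-like site, had 259 and 216 in Ctrl against 243 and 166 in LPS, and 209 and 164 in Eff against 212 and 155 in LPSEff. LPS overlapped Ctrl and LPSEff overlapped Eff, with log2 fold changes of -0.24 ± 0.27 (0.592) and -0.03 ± 0.27 (0.952), and 50.4% of its stretches of 50 bases have exact copies elsewhere. Psmb7, with the trypsin-like site, had 444 and 529 in Ctrl against 556 and 659 in LPS, and 503 and 577 in Eff against 681 and 753 in LPSEff. Its log2 fold changes were 0.32 ± 0.19 (0.274) and 0.41 ± 0.19 (0.18), the latter passing with the replicate block (limma adjusted p = 0.0312).

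Psmb2, a beta ring gene without a catalytic site, had 81.9 and 134 normalized counts in Ctrl against 182 and 246 in LPS, and 145 and 139.7 in Eff against 202 and 253 in LPSEff. The log2 fold change was 1.01 ± 0.29 (limma adjusted p = 0.0364) in naïve and 0.66 ± 0.29 (0.152) in efferocytic Mϕ, the latter passing with the replicate block (0.0249). The difference between them did not pass (-0.35 ± 0.41, adjusted p = 1). Its call was lost without Ctrl sample 1, Eff sample 1, Eff sample 2, LPS sample 2 or LPSEff sample 2 (up to 0.205), and with equal totals (0.0976), with genes of any mean above 0 (0.0599) and with only Ctrl and LPS in the fit (0.085).

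The immunoproteasome genes, left out of the 46, were higher by 2.05 ± 0.27 (Psmb9, limma adjusted p = 0.00135), 2.22 ± 0.18 (Psmb10, 0.000137) and 1.23 ± 0.28 (Psmb8, 0.0148) on the log2 scale in LPS against Ctrl, and by 2.45 ± 0.27 (0.000649), 2.46 ± 0.18 (7.75e-05) and 1.26 ± 0.28 (0.0149) in LPSEff against Eff. The Psmb8 call was lost without Ctrl sample 1 or LPS sample 2 (up to 0.0871), and without Eff sample 1 or LPSEff sample 1 (up to 0.0959), and with quantile normalization in both comparisons (0.092 and 0.0677). Per kb of transcript, the ratio of Psmb10 to its constitutive counterpart Psmb7 was 0.793 and 0.629 in Ctrl against 3.06 and 2.27 in LPS, and 0.652 and 0.538 in Eff against 2.85 and 2.12 in LPSEff. That of Psmb9 to Psmb6, which rose too, was 0.362 and 0.440 in Ctrl against 0.616 and 1.24 in LPS. In Eff it was 0.186 and 0.275 against 0.494 and 0.595 in LPSEff. The ratio of Psmb8 to Psmb5 was 4.23 and 8.74 in Ctrl against 12.2 and 23.2 in LPS. It was 5.76 and 8.76 in Eff against 16.0 and 19.1 in LPSEff. Of the stretches of 50 bases, 50.4% in Psmb5 and 0% in Psmb8 have exact copies elsewhere, so the size of this ratio is uncertain.

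None of the 6 ATPase genes of the 19S regulator was called by limma in either comparison, although all 6 values lay above 0 in both, between 0.03 (Psmc3) and 0.34 (Psmc2) in naïve and between 0.10 and 0.40 in efferocytic Mϕ. None of the 6 values lay above 0 with equal totals, where the medians were -0.19 and -0.18. Limma put 0 of them under an unadjusted p of 0.05 in either comparison, and neither edgeR nor DESeq2 called any. With the replicate block, Psmc2 was called in LPSEff against Eff (limma adjusted p = 0.0348). Psmc2, an ATPase of the base, had 463 and 528 normalized counts in Ctrl and 600.1 and 656 in LPS, and 487 and 580.1 in Eff against 669 and 736 in LPSEff. Psmc3 had 1236 and 1557 in Ctrl and 1252 and 1601 in LPS, so that its groups overlapped.

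Of the 11 non-ATPase subunits of the 19S regulator, none was called in naïve Mϕ by limma (2 at an unadjusted p under 0.05, and 10 of 11 values above 0) or DESeq2, 1 was by edgeR, and 2 were higher in efferocytic Mϕ. Their medians of 0.25 and 0.34 became -0.15 and -0.11 with equal totals. Psmd11, a subunit of the lid, had 476 and 541 normalized counts in Ctrl against 659.6 and 644 in LPS, and 562 and 606 in Eff against 1126 and 1042 in LPSEff. The LPSEff samples stood above all others. The log2 fold change was 0.36 ± 0.17 (limma adjusted p = 0.167) in naïve and 0.89 ± 0.17 (0.00793) in efferocytic Mϕ, with a difference of 0.53 ± 0.24 between them that did not pass (adjusted p = 1). The call was lost without Eff sample 1 or LPSEff sample 1 (up to 0.0676) and with equal totals (0.0667), and 535 of its 2821 stretches of 50 bases have exact copies elsewhere. Psmd7, also of the lid and named after its value was seen, was the other higher gene, at 0.70 ± 0.17 (0.0226), a call lost with equal totals (0.23), with genes of any mean above 0 (0.0769) and without Eff sample 1, Eff sample 2, LPSEff sample 1 or LPSEff sample 2 (up to 0.121). Psmd4, a ubiquitin receptor, had the highest value of these subunits in naïve Mϕ, 0.48 ± 0.17 (0.0853). There it passed with the replicate block (0.0202), as did Psmd7 (0.0182). In efferocytic Mϕ, Psmd4 stood at 0.42 (limma adjusted p = 0.139), which passed with that block (0.0412). In naïve Mϕ, Psmd13 had the lowest value, -0.18 ± 0.18 (0.543), which passed with equal totals (0.0191).

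The 3 chaperones of 19S assembly went different ways. Psmd10 (gankyrin; chromosome X) had 227 and 217 normalized counts in Ctrl against 475 and 540.2 in LPS, and 165 and 203 in Eff against 513 and 579 in LPSEff. Stimulated and unstimulated samples did not overlap, and the log2 fold changes were 1.19 ± 0.19 (limma adjusted p = 0.00365) and 1.57 ± 0.19 (0.00112), both kept whichever sample was left out. Psmd9 had 221 and 248 in Ctrl against 195 and 183 in LPS, and 247 and 277 in Eff against 218 and 206 in LPSEff. Its log2 fold changes of -0.31 ± 0.19 (0.29) and -0.31 ± 0.19 (0.315) did not pass, and with equal totals both did (0.0195 and 0.0158). Psmd5, the remaining one, stood at -0.03 ± 0.22 (0.942) and 0.45 ± 0.22 (0.197).

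Both genes called lower were chaperones of 20S assembly. PAC1 (Psmg1) and PAC2 (Psmg2) form the heterodimer on which the alpha ring is built. Psmg1 had 133 and 117 normalized counts in Ctrl against 42.7 and 38.6 in LPS, and 155 and 138 in Eff against 55.4 and 74.9 in LPSEff. All stimulated samples were below all unstimulated ones, with log2 fold changes of -1.60 ± 0.26 (limma adjusted p = 0.00331) and -1.17 ± 0.26 (0.0147). The first was kept whichever sample was left out, and the second was lost without Eff sample 1, Eff sample 2 or LPSEff sample 1 (up to 0.0987). The LPS values of Psmg1 rest on 33 and 38 reads. Those of Psmg2 rest on 21 and 41 reads, and its value in Ctrl sample 1 on 39. Psmg2 had 74.3 and 104 in Ctrl against 27.2 and 41.6 in LPS, and 78.9 and 93.9 in Eff against 34.0 and 54.6 in LPSEff. Again the stimulated samples were the lower ones, with log2 fold changes of -1.36 ± 0.36 (0.0272) and -0.98 ± 0.36 (0.0948). The call in naïve Mϕ was lost without Ctrl sample 1, Ctrl sample 2 or LPS sample 1 and with only Ctrl and LPS in the fit (0.0536). The value in efferocytic Mϕ passed with equal totals (0.0116) and with the replicate block (0.00905).

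Psmg3 and Psmg4, which form a further chaperone pair, were not called. Psmg4 stood at 0.38 ± 0.23 (limma adjusted p = 0.289) and 0.21 ± 0.23 (0.596). Psmg3, named after its values were seen, stood at -0.63 ± 0.22 (0.0762) and -0.65 ± 0.22 (0.0794). Both Psmg3 values passed with equal totals (0.00962 and 0.00794) and with the replicate block (0.0247 and 0.0241). The inhibitor PI31 (Psmf1) had 107 and 141 normalized counts in Ctrl against 154 and 269 in LPS, and 151 and 147 in Eff against 188 and 199 in LPSEff. Its log2 fold changes of 0.73 ± 0.29 (0.111) and 0.38 ± 0.29 (0.429) did not pass. In naïve Mϕ it passed with quantile normalization (0.0398) and with the replicate block (0.0203). Over the samples left out that fold change ran from 0.33 to 1.13.

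**Figure D3:**
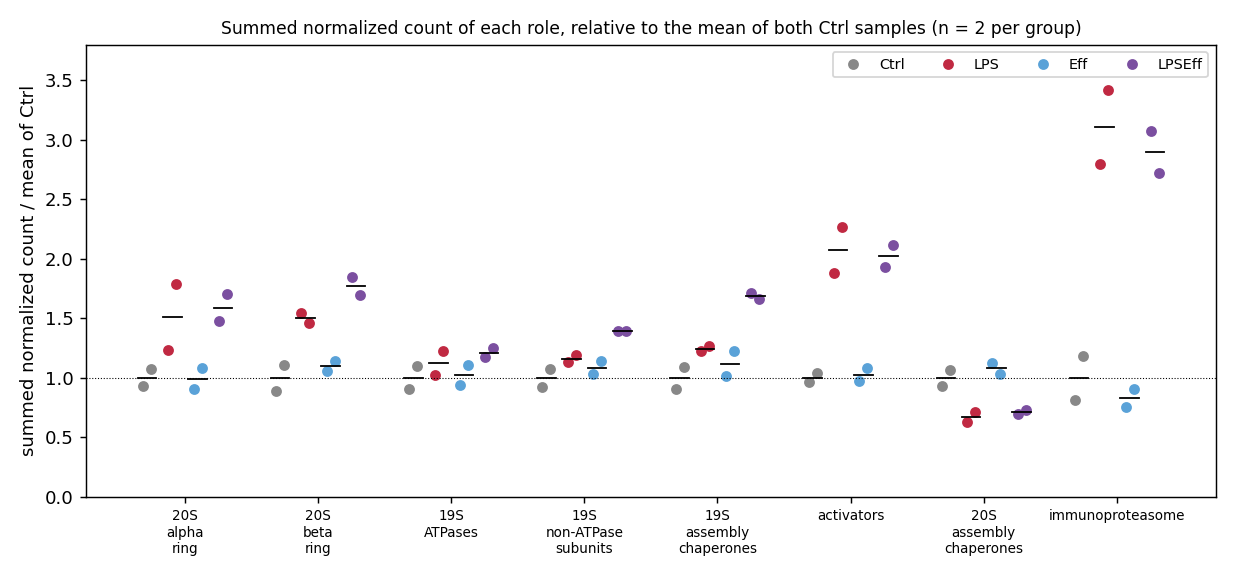
Summed normalized count of the genes of each role in every sample (points), divided by the mean of both Ctrl samples, with the group mean (line) and a dotted line at 1. Activators reach 1.88 to 2.27 in LPS and LPSEff, 19S ATPases stay between 0.90 and 1.25 in all samples, and 20S assembly chaperones fall to between 0.63 and 0.73.

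The effect of efferocytosis, together with the dimerizer present during co-culture, was asked in unstimulated (Eff against Ctrl) and in stimulated Mϕ (LPSEff against LPS). In Eff against Ctrl, limma called 0 of the 46 genes, where 0.251% of all genes were called, and put 0 under an unadjusted p of 0.05. Neither edgeR nor DESeq2 called any of them. The median was 0.10 over the 46 genes and -0.01 over all genes, the values ran from -0.55 (Psme2b) to 0.50 (Psma5), and both Eff samples lay above both Ctrl samples for 11 genes (23.9%, against 16.3% of all genes) and below for 4 (8.70%, against 17.8%). The 4 below were Psmb5, Psme1, Psmd8 and Psmd10. The sign of this median rests on single libraries, since it was -0.02 without Ctrl sample 1 and -0.01 without Eff sample 2, and 0.18 without Ctrl sample 2 and 0.16 without Eff sample 1.

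In LPSEff against LPS, limma again called 0 of the 46 genes, where 0.773% of all genes were called, with 4 under an unadjusted p of 0.05. Neither edgeR nor DESeq2 called any, with 4 and 2 under that unadjusted p. The median was 0.12 over the 46 genes and -0.003 over all genes, and 36 of the 46 values lay above 0. Leaving out a library moved this median to 0.06 (26 values above 0) without LPS sample 1, 0.26 without LPS sample 2, 0.21 without LPSEff sample 1 and 0.07 without LPSEff sample 2. Both LPSEff samples lay above both LPS samples for 18 genes (39.1%, against 19.3% of all genes) and below for 3 (6.52%, against 17.0%), namely Psme1, Psme2b and Psmg4. All 11 non-ATPase subunits of the 19S regulator had values above 0, with a median of 0.23. The largest values, 0.82 ± 0.22 for Psmd5 (named after its value was seen, limma adjusted p = 0.192) and 0.73 ± 0.17 for Psmd11 (0.13), did not pass. With the replicate block both passed (0.0204 and 0.0123). Psmd5 had 453 and 437 normalized counts in LPS against 838 and 737 in LPSEff, and 385 and 536 in Ctrl against 519.6 and 639 in Eff. The median log2 fold change of the 18 fibroblast markers was 4.04 in Eff against Ctrl and 4.34 in LPSEff against LPS, above the value of any of the 46 genes, and their part in these values was not tested.

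The test of whether LPS/IFNγ acted differently in efferocytic and naïve Mϕ called 0 of the 46 genes and 0% of all genes. Limma put 0 of the 46 under an unadjusted p of 0.05, edgeR 1 and DESeq2 0, and none was called by either. The differences ran from -0.35 (Psmf1) to 0.53 (Psmd11) with a median of 0.09. This median fell below 0 without Ctrl sample 2 (-0.02), Eff sample 1 (-0.01) or LPS sample 1 (-0.02), was 0.01 without LPSEff sample 2, and was 0.23 without Ctrl sample 1, 0.19 without Eff sample 2, 0.22 without LPS sample 2 and 0.15 without LPSEff sample 1.

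Levels were compared between genes per kb of the canonical transcript, as the mean of all 8 samples. Stimulated samples are part of this mean, so the order depends in part on the response to LPS/IFNγ. In Ctrl alone, Psmd8 (1163) stood ahead of Psmb6 (1051), and Psme2 stood at 217. Over the 8 samples Psmb6 was highest at 1714 normalized counts per kb, ahead of Psma6 (1248), Psmd8 (1226), Psmb4 (1199.6) and Psma7 (1162). These 5 were also the highest per kb of coding length. Psma3 (23.6) and Psmb2 (43.0) were lowest per kb of transcript, and their canonical transcripts are 3593 and 4019 bases long. Per kb of coding length they stood at 111 (rank 44 of 46) and 287 (rank 35). Of the stretches of 50 bases in Psma3, 24.0% have exact copies elsewhere. In the 19S regulator the range was 182 (Psmd14, the deubiquitinase) to 1226 (Psmd8) for the non-ATPase subunits and 73.4 (Psmc1) to 862 (Psmc3) for the ATPases. The 20S assembly chaperones lay between 46.7 (Psmg2) and 211 (Psmg4), the 19S assembly chaperones between 86.4 (Psmd9) and 247 (Psmd10), PI31 at 44.1, and the activators between 107 (Psme2b) and 555 (Psme2). The lengths are those of 1 transcript model each. Moreover, 11 of the 46 genes, Psme2 and Psme2b among them, have exact copies elsewhere for at least 10% of their stretches of 50 bases. Neighbouring ranks are therefore uncertain.

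**Figure D4:**
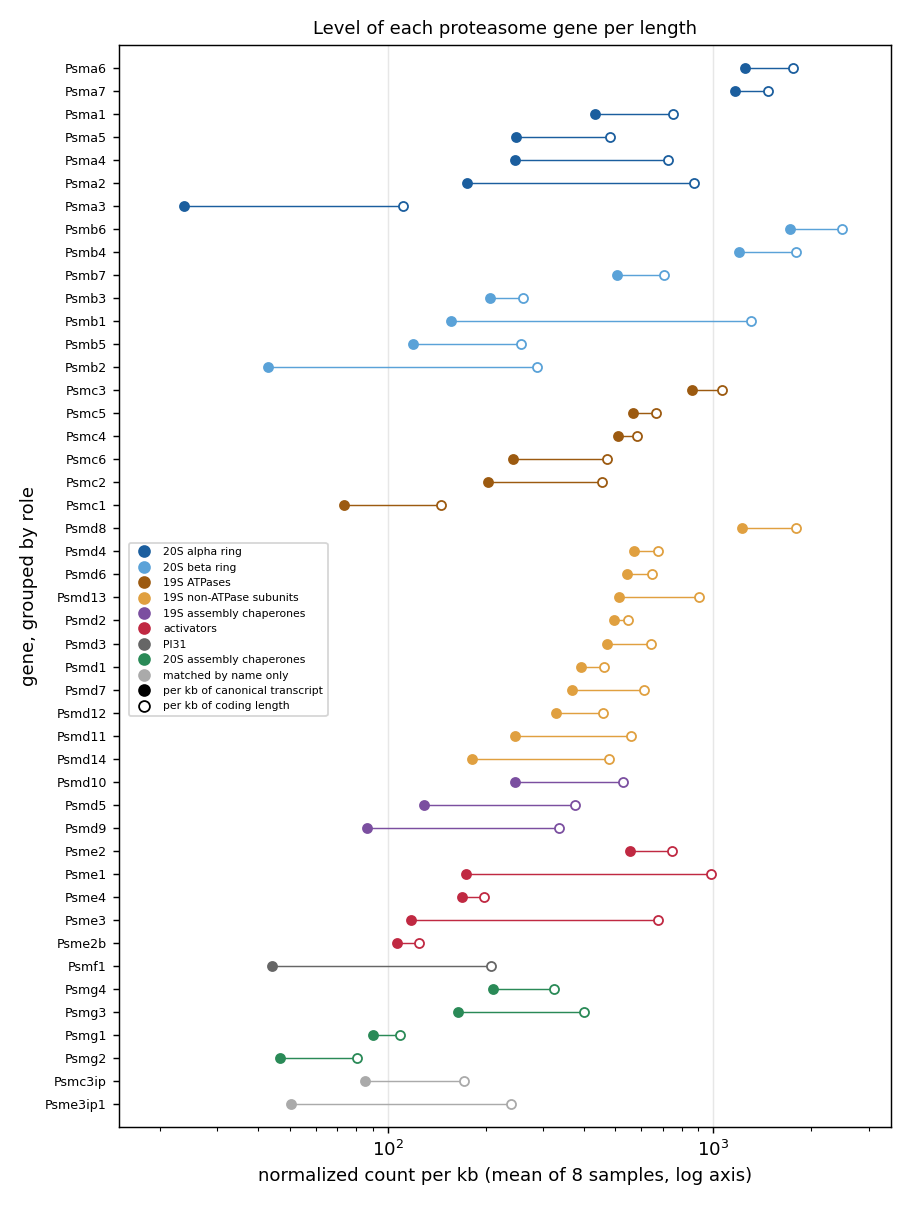
Mean normalized count over the 8 samples per kb of canonical transcript (filled) and per kb of coding length (open) for each of the 46 genes, grouped by role, on a log axis. Psmb6 is highest on either length, at 1714 and 2487, and the open and filled points lie furthest apart for genes with long untranslated ends such as Psmb1.

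Both matched genes under the mean of 10 are known for other tissues. Psma8, an alpha subunit of the testis, had between 5.54 and 12.7 normalized counts (3 to 18 reads), and Psmb11, the beta subunit of the thymus, between 0 and 5.17 (0 to 5 reads), with no reads in Ctrl sample 1, where a count of 0 allows up to 5.71 normalized counts. A count of 0 in this thinnest library thus does not exclude Psmb11 at the levels of the others. Of the genes matched by name only, Psmc3ip stood at -0.59 ± 0.27 (limma adjusted p = 0.158) and -0.36 ± 0.27 (0.411) in the comparisons of the stimulus, and Psme3ip1 at 0.34 ± 0.26 (0.406) and 0.33 ± 0.26 (0.442).

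Regulators and accessory factors of the proteasome were taken from a list of 16 genes, of which 15 were tested. In LPS against Ctrl 2 were higher and 2 lower, and in LPSEff against Eff 4 were higher and 1 lower, with medians of 0.30 and 0.45. The 13.3% called higher and 13.3% called lower in naïve Mϕ stood near the 12.4% and 11.6% of all genes, and the shares in efferocytic Mϕ were 26.7% and 6.67%, against 10.7% and 8.95%. Nfe2l1 and Nfe2l2, the transcription factors Nrf1 and Nrf2, were higher by 0.85 ± 0.22 (limma adjusted p = 0.0236) and 0.81 ± 0.24 (0.0445) in naïve and by 0.84 ± 0.22 (0.0285) and 1.02 ± 0.24 (0.0203) in efferocytic Mϕ. None of these 4 calls held with equal totals or with quantile normalization, and leaving out Ctrl sample 1, Ctrl sample 2, LPS sample 2, Eff sample 1, Eff sample 2, LPSEff sample 1 or LPSEff sample 2 ended at least 1 of them (adjusted p up to 0.22). Ddi2, the protease that processes Nrf1, had 1457 and 1518 normalized counts in Ctrl against 683 and 875 in LPS, and 1333 and 1592 in Eff against 637 and 787 in LPSEff. It was lower in stimulated samples throughout, by -0.94 ± 0.20 (0.0123) and -1.04 ± 0.20 (0.00937), and was lost without Ctrl sample 1, Ctrl sample 2 or LPS sample 1 in the first comparison (up to 0.0701) and without Eff sample 2 or LPSEff sample 1 in the second (up to 0.072).

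Zfand2a, which binds the 19S regulator under arsenite stress, was lower in naïve Mϕ (-0.86 ± 0.23, limma adjusted p = 0.028) and did not pass in efferocytic Mϕ (-0.46 ± 0.23, 0.21). Its call was lost without Ctrl sample 1, Ctrl sample 2 or LPS sample 2 (up to 0.147). Pomp, the maturation chaperone of the 20S core, was at 0.54 ± 0.24 (0.144) and 0.84 ± 0.24 (0.0407), the latter lost with equal totals, with genes of any mean above 0, with only Eff and LPSEff in the fit and without Ctrl sample 1, Ctrl sample 2, Eff sample 1, Eff sample 2, LPSEff sample 1 or LPSEff sample 2 (up to 0.218). Ecpas, named after its value was seen, was the other higher gene in efferocytic Mϕ, at 0.79 ± 0.18 (0.0182).

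Among 15 genes of ubiquitin and substrate shuttling, 2 were higher and none lower in LPS against Ctrl, and 3 were higher and 1 lower in LPSEff against Eff. The 13.3% called higher in naïve Mϕ was near the 12.4% of all genes, and 20.0% were called higher in efferocytic Mϕ against 10.7% of all genes. Nub1, which brings NEDD8 and its conjugates to the proteasome, had 1106 and 1205 normalized counts in Ctrl against 2884 and 4127 in LPS, and 756 and 1015 in Eff against 3022 and 3729 in LPSEff. The stimulated samples stood apart, at log2 fold changes of 1.58 ± 0.24 (limma adjusted p = 0.00266) and 1.94 ± 0.24 (0.00114), both kept whichever sample was left out. The ubiquitin-activating enzyme Uba1 rose by 0.74 ± 0.17 (0.0164) and 0.73 ± 0.17 (0.0199). Uba1 did not pass in either comparison with equal totals or quantile normalization, and its call was lost in naïve Mϕ without Ctrl sample 1, Ctrl sample 2 or LPS sample 1 (up to 0.103) and in efferocytic Mϕ without Eff sample 1, Eff sample 2, LPSEff sample 1 or LPSEff sample 2 (up to 0.133). Ubqln4, a ubiquitin-binding shuttle factor, was lower in efferocytic Mϕ (-0.72 ± 0.19, limma adjusted p = 0.0322), a call that was lost with DESeq2, with genes of any mean above 0, with only Eff and LPSEff in the fit and without Ctrl sample 1, Ctrl sample 2, Eff sample 1, Eff sample 2, LPSEff sample 1 or LPSEff sample 2 (up to 0.192). Outside the rule for names, Nploc4 was higher there (0.67 ± 0.19, limma adjusted p = 0.0436).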

How the data were processed

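Total RNA was rRNA-depleted (RiboCop), made into libraries with the TruSeq Ribo Profile kit and sequenced single end for 50 cycles. Per the labels and the study's methods, adapters were removed by cutadapt, residual rRNA reads were taken out by bowtie2, STAR mapped the rest to mm39, htseq-count counted them in its default mode, and DESeq2 followed (versions and annotation release are not given in the sources used here). The signal that the authors deposited for each gene is a normalized count, obtained by dividing its reads by the size factor of the sample. Multiplying it back gave whole reads for 100% of values (within 0.01 reads) in all 8 samples, and 3481288 to 12020918 reads per sample. This depth limits the precision of low genes, and a count of 0 allows 3 reads.

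Ensembl IDs were named from GENCODE vM39, which held 54749 of the 55359 IDs. The members and the gene lists were chosen with earlier results of these data known. Genes with a mean of at least 10 (16309 genes) were fitted as log2(normalized count + 1) with limma 3.58.1 in R 4.3.3 (a mean per group, 4 residual degrees of freedom, trended variance), with 5 contrasts (4 between groups and the difference between the LPS effects) and Benjamini-Hochberg adjustment over all genes. An adjusted p under 0.05 was called, and fold changes on this scale understate those of low genes. The count tests on the recovered reads, edgeR 4.0.16 (quasi-likelihood, TMM) and DESeq2 1.42.0, called 3991 and 3954 genes in LPS against Ctrl, where limma called 3910. Counts were simulated for LPS against Ctrl over 16068 genes, 193 of them changed, with a single dispersion for all genes and no replicate effect. Limma recovered 94.8% of the 4-fold and 46.4% of the 2-fold changes, that is 136 genes, with 17 false calls. EdgeR and DESeq2 made 6 false calls each and recovered 42.3% and 36.1% of the 2-fold changes. The real data were not simulated in full, so these shares need not hold for them. Alternatives were the pseudocount (0.5 or 5), the mean filter (above 0 or at least 50), the groups in the fit, the replicate number as a term, quantile normalization, equal totals, and leaving out each sample.

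Named are the called genes among the 10 largest changes of a contrast, per role those with the highest and lowest change in LPS against Ctrl and level per kb, Psmb5, Psmb6, Psmb7, all activators, genes under the mean of 10, the 3 largest called genes of each further list, and Psmb8, Psmb9 and Psmb10. Lengths are those of the Ensembl canonical transcript. Read sharing was counted as the percent of stretches of 50 bases of that transcript with an exact copy elsewhere in GRCm39. Promoters came from RefSeq. Protein sequences were not used here, and 1 gene of a further list is not reported here.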

Additional observations from a re-analysis of the deposited data

How the results depend on the processing

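For 38 named genes and 5 contrasts, 3240 of 3382 values under an alternative kept their side of the threshold, 109 no longer passed and 33 newly passed. None of the values called in either fit changed sign. Values called in neither fit could change sign within the 3240, as those of the ATPases did with equal totals. In the simulation at these depths, with 2 samples per group and a single dispersion for all genes, limma found 46.4% of the 2-fold changes. Scaling to equal totals gave 4 genes higher and 7 lower in LPS against Ctrl (median log2 fold change -0.070) and 5 higher and 6 lower in LPSEff against Eff (median log2 fold change -0.076), and quantile normalization gave a median of 0.21 in the latter. Fitting only the groups compared left 1 gene lower in LPS against Ctrl. The other alternatives that keep all samples, apart from the replicate block, moved no count by over 1.5 times and no median by more than the spread between samples of a group (0.155). All 19 calls of the 46 genes were made again with edgeR and with DESeq2, and 12 with equal totals.

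The labels number the samples 1 and 2 in each group without saying that a number marks a shared preparation. Samples with the same number deviated together (correlations between groups of 0.404 to 0.595), and 3829 genes had a different level under number 1 and number 2. With the replicate block, 16 genes were higher and 4 lower in LPS against Ctrl, 20 higher and 4 lower in LPSEff against Eff, and 2 higher in LPSEff against LPS, namely Psmd11 (limma adjusted p = 0.0123) and Psmd5 (0.0204), and no call was lost. Psmc2 was then the 1 ATPase gene called, in LPSEff against Eff (0.0348).

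With each sample left out in turn, the count of higher genes ran from 3 to 8 in LPS against Ctrl and from 5 to 9 in LPSEff against Eff, and that of lower genes from 1 to 2 and from 0 to 1. Where a group then held 1 sample, it was assumed to vary like the others. The cause of these changes was not tested.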
